A study of Mus musculus with 66 samples.

Results

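A set of 33 genes of the neuronal cytoskeleton, the growth cone, the synaptic vesicle and the secretory granule was followed through 66 sorted libraries of mouse spinal cord progenitors made from embryonic stem (ES) cells. The members are defined by their symbols, and all 33 have a row among the 24410 genes of the deposited table. They were chosen with earlier results of these data known, so counts of members beside the share of all genes are descriptions. All 33 also passed the filter on low values, which kept 15714 genes with a normalised count of at least 10 in at least 2 libraries. The cells were sorted as progenitors, and the values below describe the RNA of these genes that each gate held by day, domain and genotype.

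The ES cells were plated in N2B27 medium with 10 ng/ml bFGF, treated with 5 μM of the GSK3β inhibitor CHIR99021 from day 2 and given 100 nM retinoic acid with 10 nM of the Smoothened agonist SAG from day 3. Retinoic acid was withdrawn on day 5, and SAG was kept to the end. Cells of every group were fixed in glyoxal, permeabilised, stained and sorted at 10000 to 15000 cells per population, and polyadenylated RNA was sequenced. The labels name 2 genotypes (WT in 37 libraries, MUT in 29) without saying which gene is mutated or how many clones were used. They name 4 days (D5, D7, D9 and D11), 3 progenitor domains (p1, p2 and pM) and a gate for the glial transcription factor NFIA (NFIAn, negative, or NFIAp, positive). The series design text describes the domains as p0-p1, p2 and pMN. All MUT libraries and all WT libraries up to D7 came from the NFIAn gate. WT p1 was NFIAn at D9, WT p2 and pM were sorted both ways at D9, and all WT libraries at D11 were NFIAp. Of the 26 groups, 15 held 3 libraries, 10 held 2, and MUT D9 p2 held 1. The labels do not say whether replicates were separate cultures, and each p-value therefore covers the variation among the libraries at hand, which may be technical. Whether a stain excluded neurons from the sort is not given in the sources used here.

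Progenitors of the ventral neural tube divide next to the lumen and release daughter cells that leave the cycle and become neurons. The newborn neuron builds an axon from microtubules and neurofilaments, steers it with a growth cone, and later assembles the machinery that releases transmitter from vesicles. Microtubules are made of α-tubulin and β-tubulin, among which Tubb3 is the β-tubulin used as the standard marker of neurons. Doublecortin (Dcx), Map2, tau (Mapt) and Map1b bind and stabilise microtubules, and the stathmins Stmn2, Stmn3 and Stmn4 bind tubulin and regulate its assembly. Dpysl3, Dpysl5 and Crmp1 belong to the collapsin response mediator proteins, which relay guidance cues to the cytoskeleton. Nefl, Nefm and Ina are subunits of neurofilaments. Gap43 is a growth cone protein, and Ncam1 and L1cam are adhesion molecules of axons. Snap25 and Vamp2 are SNARE proteins that fuse vesicles with the membrane, Syt1 is their calcium sensor, Cplx2 clamps them, and Syp is a vesicle membrane protein. The granins Chga, Chgb, Scg2 and Scg3 fill dense-core granules. Gng3 is a G protein γ subunit of neurons, Rbfox3 encodes the neuronal nuclear antigen NeuN, Celf3 is a neuronal splicing factor, and Myt1l is a zinc finger factor of neurons.

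Promoter sequences of 22 of the 33 genes were present in the RefSeq set used here (build GRCm38.p6, 250 bases before to 50 after the start). The 3 stretches shown end at the start site. Tubb2a is shown as the member called in the gate comparison and in the comparison of the genotypes' changes, Celf3 as the member with the largest difference between p2 and p1 at D5, and Chga because it holds 2 matches to an E-box. Each is read 5′ to 3′ on its own strand, and capitals mark the match.
Tubb2a, chr13:34078009-34078108, minus strand, capitals TATAAA: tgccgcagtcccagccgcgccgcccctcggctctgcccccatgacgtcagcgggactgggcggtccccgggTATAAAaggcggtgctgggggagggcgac
Celf3, chr3:94478135-94478294, plus strand, capitals CAGCTG: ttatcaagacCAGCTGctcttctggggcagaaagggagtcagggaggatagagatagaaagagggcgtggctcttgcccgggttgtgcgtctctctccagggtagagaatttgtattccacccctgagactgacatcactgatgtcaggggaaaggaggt
Chga, chr12:102554751-102554940, plus strand, capitals CAGCTG: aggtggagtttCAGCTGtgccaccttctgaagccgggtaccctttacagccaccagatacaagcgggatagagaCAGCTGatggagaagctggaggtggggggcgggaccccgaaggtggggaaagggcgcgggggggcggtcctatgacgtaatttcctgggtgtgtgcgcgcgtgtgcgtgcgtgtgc
The E-box CAGCTG, which reads the same on both strands, was found in the windows of 7 of the 22 genes (Celf3, Chga, Chgb, Cplx2, Ina, Myt1l and Syt1), against 18.3% of all 27025 genes with a window. TATAAA, searched on both strands, was found in 5 of the 22 (Celf3, Chga, Dcx, Map1b and Tubb2a), against 15.7% of all genes. These letters describe the windows and say nothing of binding.

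The deposited values are read counts divided by a size factor per library, and after division the total still differed between libraries: 18 libraries (replicate 3 of D7 in both genotypes, replicate 3 of D9 in both genotypes and replicate 2 of D9 in WT) had totals of 26.6 to 40.2 M, above the 48 remaining ones (17.9 to 25.5 M). Ribosomal protein genes took 7.87% to 20.1% of the counts in these 18 (median 11.8%) and 2.62% to 11.5% in the others (median 8.005%), and the library with fewest genes detected (13491) was among the 18. The ribosomal share was also lower late, at 8.17% to 11.5% in WT D5 and 4.56% to 10.6% in WT D11, and its part in the members' differences was not tested. Recovered reads were 8.74 M in replicate 2 of MUT D5 p2 and 20.3 to 30.8 M elsewhere, and no pair of replicates held identical values or agreed within sampling noise. Tubb2a and Tubb2b share sequence, so that 49.6% of the 50-base stretches of the Tubb2a transcript and 39.3% of those of Tubb2b occur in other genes, and for Tuba1a the share is 72.9%. Whether reads were counted by strand is not given in the sources used here. Nefl and Nefm overlap in their exons by 1108 bases on opposite strands, Ina overlaps Nt5c2 by 456 bases, Gng3 overlaps Bscl2 by 398 and Syp overlaps the antisense gene Gm14703 by 875, so reads of these pairs could be split or shared. Values for these genes are uncertain to that extent.

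Among the genes the results turn on, Tubb3 lies at chr8:123411424-123422015 (plus strand), Stmn2 at chr3:8509360-8561606 (plus), Map2 at chr1:66175273-66442583 (plus), Tubb2a at chr13:34074274-34078007 (minus), Gng3 at chr19:8836933-8839194 (minus) and Celf3 at chr3:94478295-94492198 (plus), all protein-coding genes in the GENCODE annotation of GRCm38. Per kilobase of exon and averaged over all 66 libraries, Tuba1a stood first at 79527 normalised counts per kb, followed by Tubb3 at 4985, Stmn3 at 4543, Tubb2a at 2317 and Tubb2b at 2277. Synaptic genes were lower, with Vamp2 at 125, Snap25 at 40.2 and Syt1 at 13.5 normalised counts per kb. Map2 stood at 52.3, and Nefm (7.95), L1cam (4.73) and Myt1l (2.50) closed the order. Tuba1a alone made up 62.5% to 78.9% of the members' summed counts in the 26 groups. Tuba1a, an α-tubulin that dividing cells also make, already stood at 36932 to 65463 normalised counts in the WT D5 libraries.

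With Tuba1a left out, the other 32 genes summed to 541 CPM (normalised counts scaled to a common library total) in WT D5 p1 (520 to 573 over 3 libraries), 822 in p2 (756 to 911, 3 libraries) and 1312 in pM (1149 and 1474). The 3 domains did not overlap at D5. By D7 the sum stood at 1546 for p1 (1357 to 1698), 2625 for p2 (2171 to 2891) and 2600 for pM (1889 to 3000), above every D5 library of the same domain. At D11 it reached 2677 in p1 (2191 and 3163), 4161 in p2 (3336 and 4985) and 3358 in pM (2801 and 3914), in libraries of the NFIAp gate. In bulk libraries of a sorted population, more neurons, more neuronal RNA per cell and RNA of these genes in the progenitors themselves cannot be told apart. Crmp1, Map1b and Dpysl5 already stood at 298, 261 and 212 normalised counts per kb in WT D5.

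**Figure D1:**
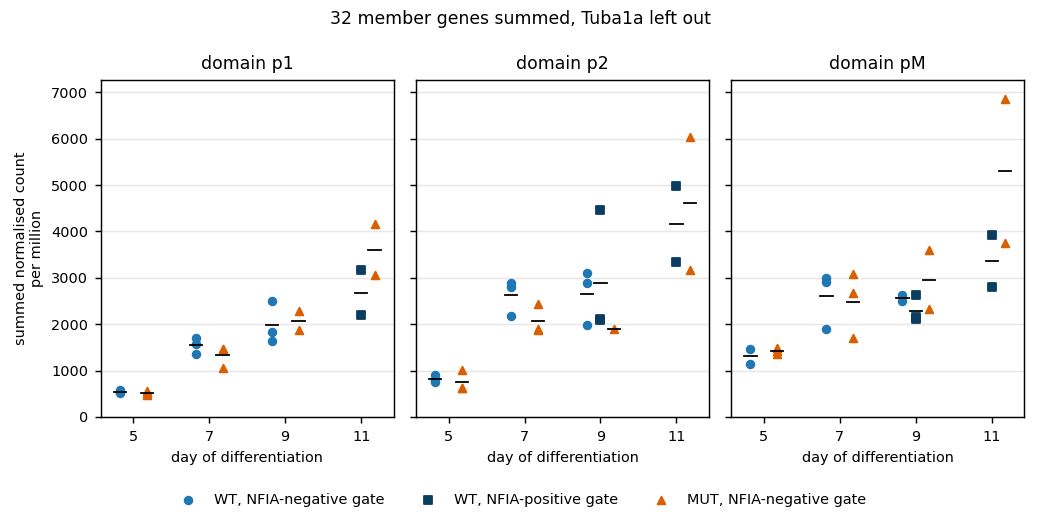
Summed level in CPM (y axis) of the 32 member genes other than Tuba1a, by day of differentiation (x axis) and domain (panels). Each point is a library, the black bar is the group mean, and the mean sum went from 541 to 2677 in WT p1, from 822 to 4161 in WT p2 and from 1312 to 3358 in WT pM between D5 and D11.

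The first step compared D7 with D5 in WT, domain by domain. In p1 20 of the 33 members rose and none fell, where 3.4% of the 15714 genes tested were called higher. In p2 22 rose and none fell (3.6% of all genes called higher). In pM 8 rose and none fell (1.85% of all genes). The members' median log2 difference for p1, p2 and pM was 1.83, 2.28 and 0.94, while the median of all genes was 0, -0.004 and 0. Calls are at an adjusted p under 0.05 in limma on log2(normalised count + 1), adjusted over all genes, and every log2 difference below is on that scale with its standard error. Leaving out replicate 3 of D7, a library of high total, lowered the count to 13 in p1 and to 13 in p2. In pM, leaving out replicate 2 of D5 lowered it to 5 and leaving out replicate 3 of D5 to 4, and a fit on the compared groups alone called 13 in p1 and 2 in pM.

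Among the tubulins, Tubb3 showed the step most plainly. Tubb3 stood at 835, 762 and 705 normalised counts in WT D5 p1 and at 6627, 5019 and 12199 in D7 p1. In p2 Tubb3 went from 2001, 1950 and 2182 to 7360, 9642 and 21952, and in pM from 6541 and 5664 to 11820, 10301 and 21403. D5 and D7 did not overlap in any domain, and replicate 3, of high total, was the highest of each D7 group. The Tubb3 difference was 3.27 ± 0.34 in p1 (adjusted p = 7.8e-10) and 2.50 ± 0.34 in p2 (adjusted p = 6.8e-07), while in pM it was 1.18 ± 0.38 and did not pass (adjusted p = 0.076, or 0.049 without replicate 2 of D7). Tuba1a rose in p1 (1.56 ± 0.48, adjusted p = 0.047). Tubb2a rose in all 3 domains, by 1.96 ± 0.24, 2.35 ± 0.24 and 1.78 ± 0.26. Tubb2b rose by 3.12 ± 0.82 in p1 and by 3.58 ± 0.91 in pM, but its replicates spread widely, from 1635 to 8030 in D7 p1, and the pM call was lost without any of 3 libraries in turn (adjusted p = 0.11 without replicate 2 of D5, 0.21 without replicate 3 of D5 and 0.12 without replicate 3 of D7).

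The microtubule-binding gene Dcx, made by migrating newborn neurons, rose in every domain. Dcx went from 16.7, 7.66 and 21.5 in D5 p1 to 506, 433 and 472 in D7 p1, a difference of 4.96 ± 0.43. In p2 Dcx rose from 46.8, 72.1 and 39.7 to 761, 869 and 1450 (4.24 ± 0.43), and in pM from 68.4 and 60.3 to 480, 292 and 169 (2.14 ± 0.48). Every D7 library of Dcx lay above every D5 library of its domain. Map2 rose in p1 (1.65 ± 0.48) and p2 (2.04 ± 0.48), and in pM its fitted difference was -0.85 ± 0.53 with an adjusted p of 0.47. Mapt rose in p2 by 2.88 ± 0.73 and in pM by 3.26 ± 0.82. The pM call of Mapt was lost without replicate 2 of D5 (adjusted p = 0.48), replicate 1 of D7 (0.068) or replicate 2 of D7 (0.066). Map1b, an early microtubule-associated protein, did not pass in any domain, with differences of 0.17, 0.72 and 0.08.

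All 3 stathmins rose in p1 and p2, and none passed in pM. Stmn2, a regulator of axon growth, stood at 198, 185 and 187 in D5 p1 and at 1386, 1136 and 4996 in D7 p1. In p2 Stmn2 went from 415, 457 and 360 to 1944, 2603 and 14773. Replicate 3 was the highest D7 library in both domains. The difference was 3.38 ± 0.53 in p1 (adjusted p = 1.3e-05) and 3.36 ± 0.53 in p2 (adjusted p = 1.6e-05). In pM Stmn2 went from 1687 and 1130 to 3298, 2162 and 5093, also without overlap, and its difference of 1.26 ± 0.59 did not pass (adjusted p = 0.29). Stmn4 rose by 3.59 ± 0.50 in p1 and by 3.67 ± 0.50 in p2. Of the collapsin response mediators, Dpysl3 rose in all 3 domains by 1.83 ± 0.28, 1.91 ± 0.28 and 1.56 ± 0.31, while Dpysl5 and Crmp1 passed in none, with differences from -0.01 to 0.89.

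Of the 3 neurofilament genes, Nefl rose in each domain, Nefm in p1 and p2, and Ina in p2. Nefl was 547, 407 and 547 in D5 p1 and 1760, 1514 and 3646 in D7 p1, a difference of 2.10 ± 0.44 (adjusted p = 0.0011). In p2 Nefl went from 456, 381 and 289 to 2470, 4902 and 9011 (3.69 ± 0.44, adjusted p = 3.6e-08). In pM it went from 670 and 473 to 3993, 2971 and 1555 (2.23 ± 0.49, adjusted p = 0.0039), and there replicate 3 of D7 was the lowest of its group. The pM call of Nefl was lost without replicate 3 of D5 (adjusted p = 0.12) and in a fit of the compared groups alone (0.077). Nefm started near the limit of detection, at 0.928, 0 and 1.96 in D5 p1 and 3.98, 2.64 and 9.92 in D5 p2, and reached 79.5, 73.8 and 342 in D7 p2 (4.45 ± 0.80). Gap43 rose in all 3 domains, by 2.36 ± 0.44, 3.62 ± 0.44 and 2.71 ± 0.49, while Ncam1 and L1cam did not pass in any.

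The synaptic vesicle genes split at this step. Syt1, the calcium sensor, went from 16.7, 3.83 and 2.93 to 72.9, 68.7 and 89.3 in p1 and from 1.90 and 0 to 67.3, 98.0 and 50.7 in pM. It rose in all 3 domains, by 3.48 ± 0.87, 3.77 ± 0.87 and 5.37 ± 0.97, although its D5 values were a few reads, where a log2 difference depends on the pseudocount, and the pM call was lost in a fit of the compared groups alone (adjusted p = 0.054). Snap25 went from 20.4, 35.4 and 74.3 to 144, 133 and 129 in p1 and from 59.7, 142 and 70.3 to 202, 276 and 433 in p2. Neither pair of Snap25 groups overlapped. The differences were 1.81 ± 0.51 (adjusted p = 0.026) and 1.77 ± 0.51 (adjusted p = 0.03). In p1 the call was lost without any 1 of replicates 1 and 2 of D5 or replicates 1, 2 and 3 of D7 (adjusted p from 0.064 to 0.2) and in edgeR (0.067), and in p2 without replicates 1 or 3 of D5 or 2 or 3 of D7 (0.062 to 0.2). In pM Snap25 was 95.1 and 118 against 234, 175 and 197 (0.92 ± 0.57, adjusted p = 0.48). Syp rose in p2 (1.46 ± 0.38) and did not pass in p1 or pM, a difference between domains that was not tested, and Cplx2 and Vamp2 passed nowhere.

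Among the granule genes, Scg2, Scg3 and Chga rose in p1 and all 4 rose in p2, while none passed in pM. Scg2 went from 0, 10.5 and 0 to 43.9, 18.4 and 90.8 in p1 and from 8.96, 19.4 and 19.0 to 204, 250 and 428 in p2, without overlap in either. Its differences were 4.25 ± 1.05 and 4.13 ± 1.05. The p1 call of Scg2 was lost without replicate 1 of D5 (adjusted p = 0.068), replicate 3 of D5 (0.079) or replicate 3 of D7 (0.067), and the p2 call without replicate 1 of D5 (0.052) or replicate 3 of D7 (0.07). Scg3 and Chga rose less, by 1.72 ± 0.33 and 1.90 ± 0.41 in p1. Gng3 rose in p1 (2.29 ± 0.51) and p2 (3.25 ± 0.51). Of the nuclear factors, Celf3 rose in p1 by 5.16 ± 0.47, from 3.71, 2.87 and 4.89 to 160, 181 and 168. In p2 Celf3 rose by 2.28 ± 0.47. Rbfox3 and Myt1l did not pass in any domain.

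**Figure D2:**
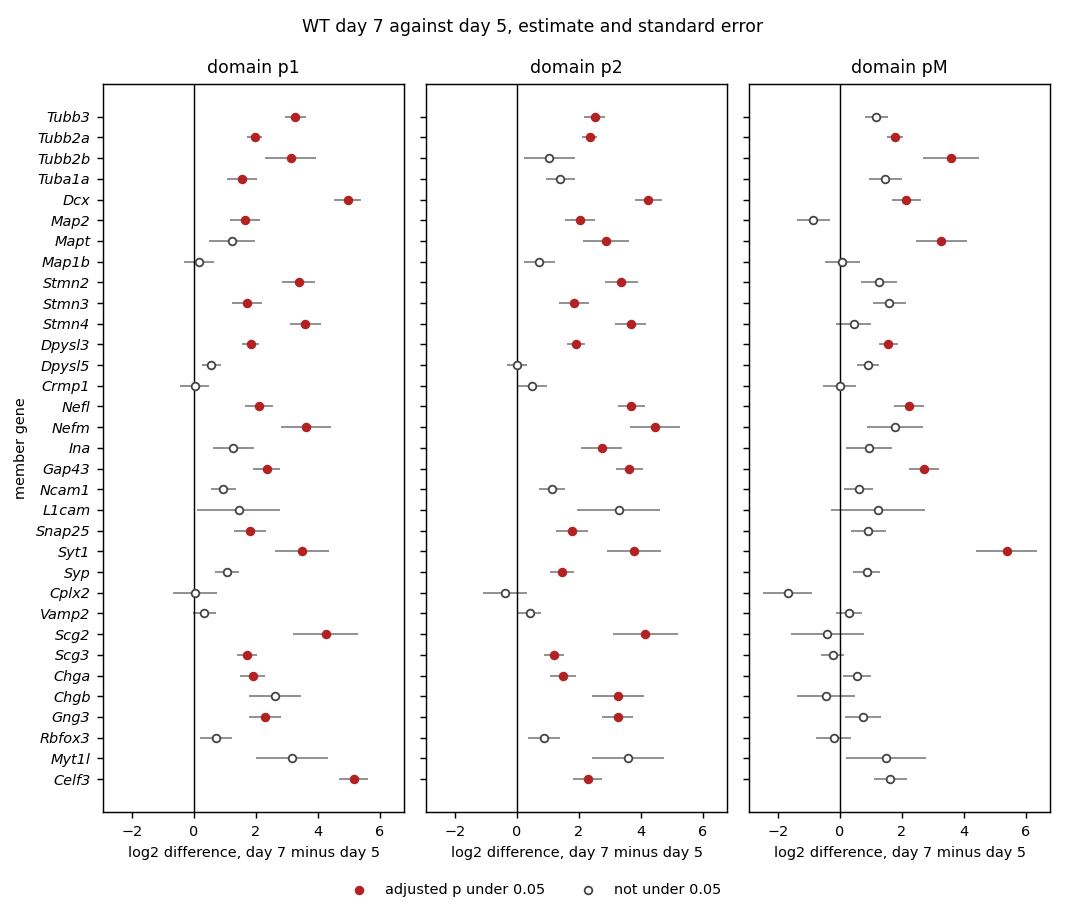
Log2 difference between D7 and D5 in WT (x axis) for each member gene (rows) in the 3 domains (panels), with the standard error of the limma fit. Filled points passed an adjusted p of 0.05, and there are 20 in p1, 22 in p2 and 8 in pM.

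The domains differed before this step, at D5. This comparison was added after the levels had been seen, so it describes these libraries. In WT, 3 members were higher in p2 than in p1 at D5 and none lower (0.305% of all genes were called higher). Celf3 was higher by 3.87 ± 0.47 (adjusted p = 3.7e-07), at 58.7, 99.4 and 54.6 in p2 against values under 5 in p1. Dcx was higher by 1.79 ± 0.43 (adjusted p = 0.042) and Tubb3 by 1.41 ± 0.34 (adjusted p = 0.039). Leaving out any 1 of replicates 1 and 2 of p1 or 1, 2 and 3 of p2 reduced the 3 calls to 1, and for Tubb3 replicate 3 of p1 did so too (adjusted p = 0.2). Between pM and p2 no member was called in WT D5 by limma, 10 had an unadjusted p under 0.05 (4.26% of all genes did), and edgeR on the recovered reads called 1, Tubb3. Tubb3 lay 1.58 ± 0.38 higher in pM with an adjusted p of 0.05 that just missed the threshold, and it passed in edgeR (0.019) and with TMM scaling (0.018). Stmn2 lay 1.75 ± 0.59 higher (adjusted p = 0.53) and passed in a fit of the compared groups alone (0.015). Without any 1 of the p2 libraries neither passed, with an adjusted p in limma of at least 0.11 for Tubb3 and at least 0.73 for Stmn2. MUT libraries, which are separate from the WT ones, gave 1 member higher in p2 than in p1 (Celf3, 2.87 ± 0.47, where 0.35% of all genes were called higher, and 2 members without replicate 2 of p2).

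In MUT D5, 8 members were higher in pM than in p2 and none lower, where 0.515% of all genes were called higher. They were Tubb3 (1.86 ± 0.34), Stmn2 (2.34 ± 0.53), Stmn4 (2.67 ± 0.50), Dpysl3 (1.28 ± 0.28), Celf3 (2.52 ± 0.47), Scg3 (1.45 ± 0.33), Chgb (3.48 ± 0.83) and Nefm. Tubb3 was 5742, 4887 and 3969 in MUT D5 pM and 1068, 1324 and 1630 in MUT D5 p2. Nefm had no reads in the 3 p2 libraries and stood at 16.9, 30.1 and 4.38 in pM, so no fold is given for it. Leaving out replicate 1 of p2 reduced the 8 calls to 3, replicate 1 of pM to 4 and replicate 2 of pM to 3. Chgb was lost without any 1 of replicates 1 and 2 of p2 or 1, 2 and 3 of pM (adjusted p from 0.064 to 0.26) and in edgeR (0.17), with a pseudocount of 8 (0.093) and in a fit of the compared groups alone (0.082), where Celf3 was lost too (0.086), and Stmn2 without replicates 1 or 3 of p2 or 1 or 2 of pM (0.05 to 0.19). Genes of the transition from progenitor to neuron (16 genes, among them Hes6, an inhibitor of Hes1, and Gadd45g, a growth arrest gene) differed in the same comparisons: 11 of 16 were higher in p2 than in p1 in WT D5 and 11 in MUT D5, and 7 of 16 were higher in pM than in p2 in WT D5 and 10 in MUT D5. In the same order 0.305%, 0.35%, 0.204% and 0.515% of all genes were called higher. The part of these 16 genes in the members' differences was not tested.

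The change from D5 to D11 in WT differed among the domains for 2 members by an F test in limma, where 0.891% of all genes were called. Tubb3 changed by 3.91 ± 0.38 in p1, by 2.91 ± 0.38 in p2 and by 0.68 ± 0.41 in pM (adjusted p = 0.00088 for the difference among domains). Celf3 changed by 5.44 ± 0.52, 2.65 ± 0.52 and 1.56 ± 0.57 (adjusted p = 0.0044). Celf3 at D11 was 404 and 104 in p1, 365 and 515 in p2, and 345 and 481 in pM, with overlap. Tubb3 at D11 was 15292 and 8730 in p1, 13826 and 17083 in p2 and 8412 and 11304 in pM, where only p2 and pM did not overlap. The Celf3 call was lost without replicate 2 of D11 p1 (adjusted p = 0.17), with a pseudocount of 8 (0.071) and in a fit of the compared groups alone (0.097).

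**Figure D3:**
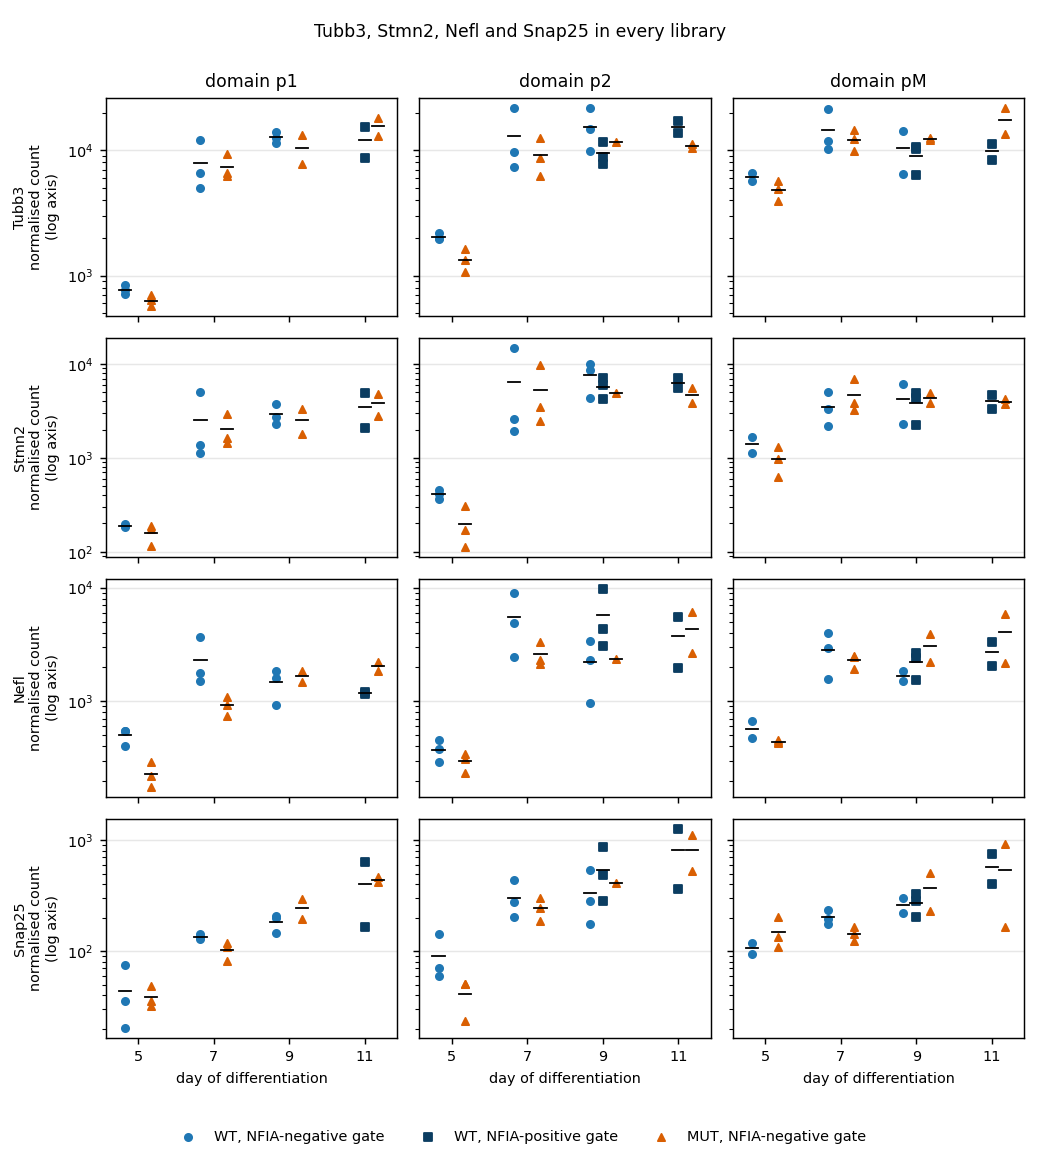
Normalised counts (log axis) of Tubb3, Stmn2, Nefl and Snap25 in every library by day (x axis), domain (columns of panels), genotype and NFIA gate (colour and marker), with the group mean as a black bar. Tubb3 at D5 lay at 705 to 835 in WT p1, 1950 to 2182 in p2 and 5664 to 6541 in pM, and the lowest WT library of D7 was at 5019.

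From D7 to D9 in the NFIAn gate, Map2 and Tubb2a rose in p1 (1.79% of all genes were called higher) and in pM (0.566% of all genes). In p2 no member was called by limma, 5 had an unadjusted p under 0.05 (12.9% of all genes did), and edgeR called none (limma called 1 without replicate 1 or replicate 3 of D7). Map2, which marks the dendrites and cell bodies of maturing neurons, went from 226, 297 and 243 to 1267, 1059 and 1655 in p1 (2.36 ± 0.48, adjusted p = 0.0012). In pM Map2 went from 285, 129 and 36.9 to 610 and 351 (2.05 ± 0.53, adjusted p = 0.031). The groups did not overlap in either domain. Tubb2a rose by 0.82 ± 0.24 in p1 (adjusted p = 0.033) and by 0.99 ± 0.26 in pM (adjusted p = 0.041). The Tubb2a call in p1 was lost in 4 of 6 fits that left out a library (adjusted p up to 0.17), and in pM in all 5 (0.051 to 0.24). The Map2 call in pM was lost without replicates 2 or 3 of D7 or replicates 1 or 3 of D9 (adjusted p from 0.063 to 0.39) and in edgeR (0.12). Leaving out the 18 libraries of high total leaves 1 library in each WT D9 group, so that fit cannot tell whether these calls rest on the high totals. In it Map2 was at 2.29 in p1 and 1.664 in pM, and Tubb2a in pM was at 1.056.

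Tubb3, Stmn2, Nefl and Snap25 did not pass between D7 and D9 in any domain. For p1, p2 and pM the Tubb3 differences were 0.77 ± 0.34, 0.34 ± 0.34 and -0.51 ± 0.38. Nefl differed by -0.61 ± 0.44, -1.28 ± 0.44 and -0.67 ± 0.49, and without replicate 1 of D7 its difference in p2 passed at -1.75 (adjusted p = 0.034). Stmn2 differed by 0.52, 0.77 and 0.18 and Snap25 by 0.43, 0.05 and 0.36. Replicates of D9 p2 spread widely for these genes, with Nefl at 3414, 969 and 2323 and Tubb3 at 9872, 14777 and 21712.

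From D9 to D11 the gate could be held at NFIAp in p2 and pM, while in p1 it changed from NFIAn to NFIAp. In pM 4 members rose (2.51% of all genes were called higher), namely Gng3 (2.29 ± 0.57, adjusted p = 0.011), Map2 (1.87 ± 0.53), Vamp2 (1.37 ± 0.42, adjusted p = 0.049) and Dpysl3 (1.01 ± 0.31). Gng3 went from 322, 155 and 213 to 1044 and 1117 in pM. Vamp2, the vesicle SNARE, went from 606, 250 and 391 to 761 and 1340. Neither gene overlapped between the days. In p1 Gng3 was the only member called (1.95 ± 0.57, adjusted p = 0.043, 2.13% of all genes), at 188, 138 and 214 against 651 and 723. In p2 none was called by limma, 4 had an unadjusted p under 0.05 (12.3% of all genes did), and edgeR called none (limma called 1 without replicate 1 of D9). Without replicate 2 or 3 of D11 or replicate 2 of D9 no member was called in pM, without replicate 3 of D9 1 was, and in p1 the Gng3 call was lost without any 1 of the 5 libraries and in a fit of the compared groups alone (adjusted p = 0.1). The Vamp2 call in pM was lost with no filter (0.053), with TMM scaling (0.059) and in edgeR (0.069). The fit without the 18 libraries of high total holds 1 library per WT D9 group, so only its differences are given. Gng3 differed there by 1.865 in p1 and 1.742 in pM, and in pM Map2 differed by 1.126 and Vamp2 by 0.735. Tubb3, Stmn2, Snap25 and Nefl did not pass in any domain at this step, and Stmn2 differed by 0.16, 0.14 and 0.11.

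**Figure D4:**
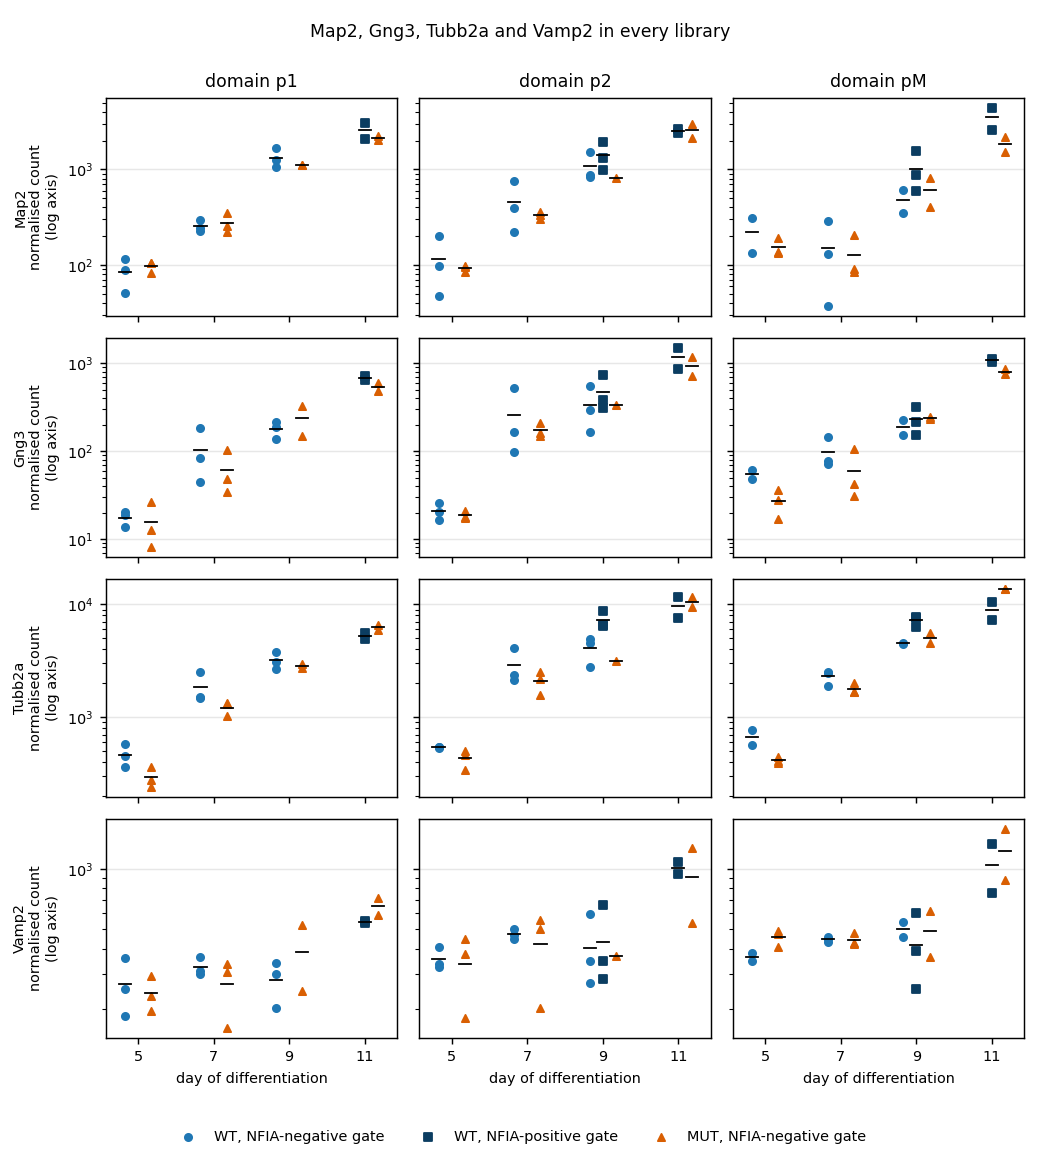
Normalised counts (log axis) of Map2, Gng3, Tubb2a and Vamp2 in every library by day, domain, genotype and NFIA gate, with the group mean as a black bar. In WT pM Map2 lay at 36.9 to 285 at D7 and at 2581 and 4428 at D11.

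From D7 to D11, averaged over the 3 domains, 15 members were higher at WT D11 than at D7 and 1 was lower, where 18.4% of all genes were called higher and 15.2% lower. This contrast was also added after the levels had been seen. Map2 had the largest difference (3.62 ± 0.31, adjusted p = 1.7e-13), with Gng3 (2.98 ± 0.33), Myt1l (3.00 ± 0.75), Mapt (2.13 ± 0.47), Stmn4 (2.07 ± 0.32), Rbfox3 (1.87 ± 0.33), Tubb2a (1.76 ± 0.15), Snap25 (1.31 ± 0.33) and Vamp2 (1.01 ± 0.24). Dcx, Dpysl3, Gap43, Ncam1, Cplx2 and Scg3 rose by 0.58 to 1.33. Dpysl5, a collapsin response mediator of young axons, fell by 0.99 (SE 0.20). Tubb3 (0.18 ± 0.22), Stmn2 (0.50 ± 0.34) and Nefl (-0.47 ± 0.28) did not pass. Without the 18 libraries of high total Tubb3 passed at 0.56 (adjusted p = 0.0033) and Stmn2 at 1.12 (0.00016), and Stmn2 passed at 0.80 without replicate 3 of D7 p2 alone (0.04), so a level course after D7 for these genes rests on those libraries. In MUT, where both days were NFIAn, 23 members were higher at D11 than at D7 and none lower (18.1% of all genes called higher). Map2 (3.29 ± 0.31), Gng3 (3.20 ± 0.33), Stmn4 (2.77 ± 0.32) and Tubb2a (2.56 ± 0.15) rose in MUT as well, and Stmn2 (0.29 ± 0.34) did not pass, except at 0.69 without the 18 libraries (adjusted p = 0.018). Tubb3 in MUT (0.63 ± 0.22, adjusted p = 0.021) was lost without replicate 2 of D11 p1 (0.071), replicate 2 of D11 pM (0.087) or replicate 1 of D7 p2 (0.052). Nefl in MUT (0.82 ± 0.28, adjusted p = 0.02) was lost without replicate 3 of D11 p1 (0.055), p2 (0.13) or pM (0.14). Both MUT calls were lost when libraries of 1 genotype, day and replicate number were taken as correlated (Tubb3 0.096, Nefl 0.12).

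Over the whole course, D11 against D5, 28 of 33 members rose in WT p1, 30 in p2 and 17 in pM, and none fell. The share of all genes called higher for p1, p2 and pM was 14%, 14.2% and 10.7%, and the members' median log2 difference was 3.12, 2.83 and 1.56. Without replicate 2 of D5 pM the count in pM was 11. Day and gate changed together here, since D5 was NFIAn and D11 NFIAp. The largest differences among members with a mean of at least 50 were Dcx (5.97 ± 0.48), Stmn4 (5.95 ± 0.56) and Scg2 (5.49 ± 1.17) in p1, Myt1l (6.54 ± 1.30), Gng3 (5.72 ± 0.57) and Stmn4 (5.26 ± 0.56) in p2, and Mapt (6.09 ± 0.90), Syt1 (5.86 ± 1.07) and Myt1l (5.58 ± 1.42) in pM. Myt1l averaged 0.106 normalised counts per kb over the WT D5 libraries, and Syt1 in D5 pM and Scg2 in D5 p1 were also near the limit of detection. For these the size of the difference, and so its rank, depends on the pseudocount. Snap25 rose in each domain by 3.06 ± 0.57, 2.98 ± 0.57 and 2.37 ± 0.63. Its D11 libraries lay far apart, at 164 and 637 in p1 and 359 and 1259 in p2. Without replicate 2 of D5 (adjusted p = 0.051) or replicate 3 of D11 (0.088) the pM call of Snap25 was lost, and without replicate 2 of D5 the pM call of Myt1l (0.067).

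Among the members, 3 did not pass in any domain over the whole course: Map1b (0.59, 0.06 and -0.50), Dpysl5 (-0.16, -0.88 and -0.47) and Cplx2 (1.24, 0.47 and 0.22). Map1b was already abundant at D5, at 2450 to 7306 normalised counts in WT, and stood at 2972 to 5426 at D11. Dpysl5 stood at 688 to 2049 at D5 and at 776 to 1712 at D11. In pM Tubb3, Stmn2, Tuba1a and the 4 granule genes also did not pass. Tubb3 in pM was 6541 and 5664 at D5 and 8412 and 11304 at D11 (0.68 ± 0.41, adjusted p = 0.27), and Stmn2 was 1687 and 1130 against 3334 and 4669 (1.51 ± 0.65, adjusted p = 0.093, but 0.0043 in a fit of the compared groups alone and 0.0037 without the 18 libraries of high total). Nefl rose in p2 (3.15 ± 0.49) and pM (2.22 ± 0.53), and in p1 its difference of 1.25 ± 0.49 passed narrowly (adjusted p = 0.049) and was lost in each of 5 fits that left out a library (0.069 to 0.17), with no filter (0.064), with TMM scaling (0.059) and in edgeR (0.058).

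**Figure D5:**
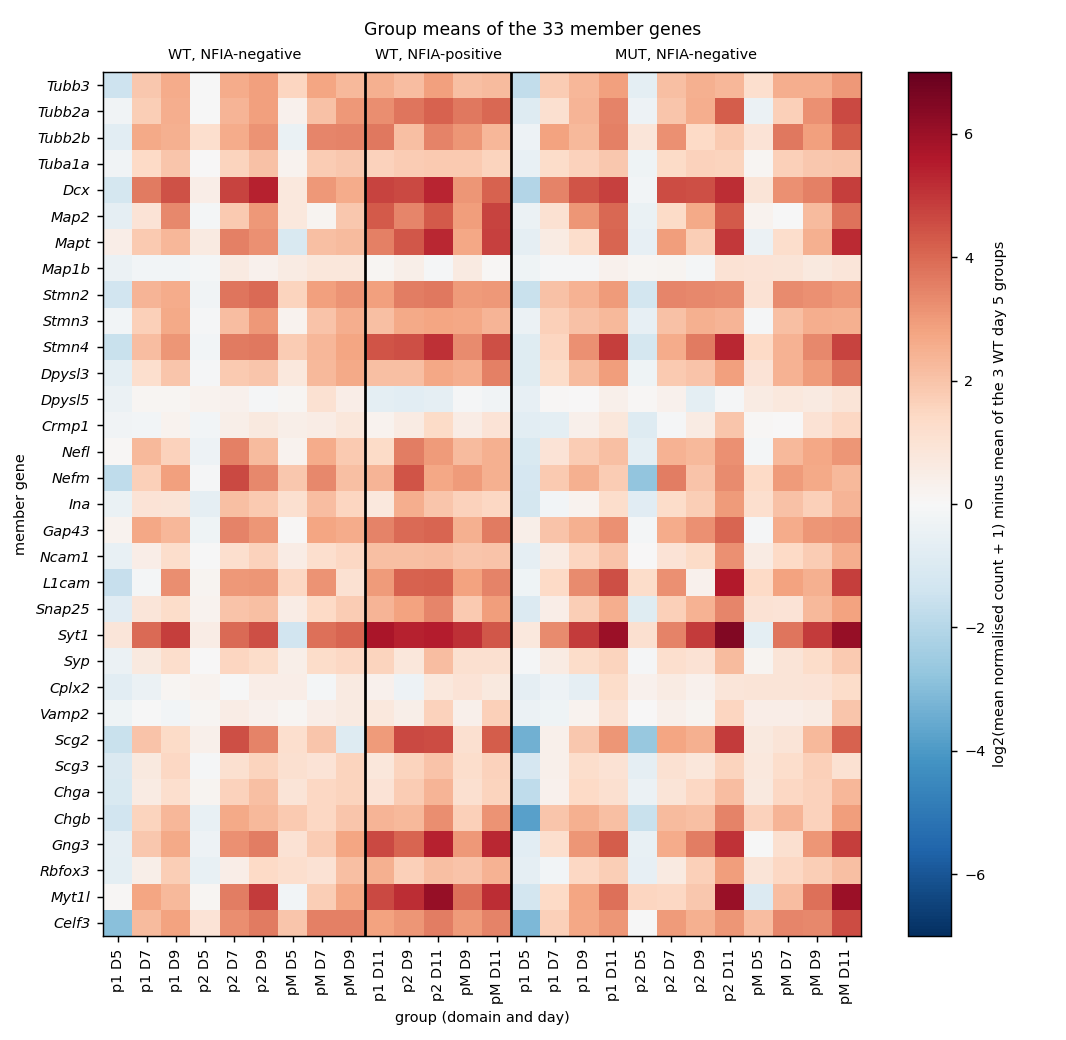
Group means of the 33 members as log2(mean normalised count + 1), each minus the mean of the 3 WT D5 groups of that gene (colour), by domain and day within genotype and gate. Map1b, Dpysl5 and Cplx2 stay pale throughout, while Dcx, Syt1, Gng3 and Myt1l turn dark red by D11.

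At D9 the WT libraries allow cells with and without NFIA, a factor of gliogenesis, to be compared. Averaged over p2 and pM, 1 of 33 members was higher in NFIAp than in NFIAn and none lower (6 libraries against 5, with 0.146% of all genes called higher). The members' median difference was 0.021, beside 0.025 over all genes. Tubb2a was the member called (0.77 ± 0.18, adjusted p = 0.045). It stood at 8819, 6617 and 6407 in NFIAp p2 against 4973, 2757 and 4535 in NFIAn p2, and at 7783, 7623 and 6250 against 4552 and 4477 in pM. All 6 NFIAp libraries of Tubb2a were above all 5 NFIAn libraries. The call was lost in 9 of 11 fits that left out a library, in edgeR (adjusted p = 0.065) and in a fit of the compared groups alone (0.17). Among the 9 were the fits without replicate 2 of NFIAp p2 (0.054), replicate 2 of NFIAp pM (0.07) and replicate 3 of NFIAn p2 (0.08). Without the 18 libraries of high total, which leaves 1 library in each of these groups, the difference was 0.80. Tubb3 (-0.39 ± 0.25), Stmn2 (-0.20 ± 0.40), Snap25 (0.38 ± 0.39) and Nefl (0.86 ± 0.33, adjusted p = 0.37) did not pass, although Nefl passed when libraries of 1 genotype, day and replicate number were taken as correlated (0.99, adjusted p = 0.028). Nfia RNA itself overlapped between the gates, at 408 to 1122 in NFIAp p2 against 77.8 to 457 in NFIAn p2 and at 449 to 2305 against 282 to 670 in pM. Of the 16 genes of the neurogenic transition, 3 were lower in NFIAp, where 0.0573% of all genes were called lower.

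The domains were also compared at WT D11. Between p2 and p1 no member was called by limma, 4 had an unadjusted p under 0.05 (9.02% of all genes did), and edgeR called none. The members' median difference was 0.74, beside 0.018 over all genes, with 2 libraries in each group. Of 33 fitted differences 30 were above 0, and the share of all genes above 0 is not given here. Nefl differed by 1.47 ± 0.53 (adjusted p = 0.27), Tubb2a by 0.84 ± 0.29 and Tubb3 by 0.41 ± 0.41. Between pM and p2 none was called, 3 had an unadjusted p under 0.05 (5.03% of all genes did), and edgeR called none. The median difference there was -0.29, beside -0.004 over all genes. With the correlation of libraries taken into account, 3 members were called between p2 and p1, Nefl among them (adjusted p = 0.041). The share of all genes called in that fit is not given here.

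MUT was compared with WT day by day. No member was called by limma at D5, D7 or D9, nor at D11 in p1, p2 or pM, and edgeR called none in any of these 6 comparisons. At an unadjusted p under 0.05 there were 7 members at D5 (7.69% of all genes), 6 at D7 (14%), 0 at D9 (9.13%), 2 at D11 p1 (9.92%), 0 at D11 p2 (6.13%) and 3 at D11 pM (12.1%). These calls depend on how the replicate number is treated. With the number as a block within each day, 3 members were lower in MUT at D5 (Stmn2 among them, -0.65, adjusted p = 0.046), 5 were lower and 1 higher at D7 (Nefl lower, -0.78, adjusted p = 0.0047), 0 were called at D9 and 2 were higher in each domain at D11. The share of all genes called with this block is not given here, so these counts cannot be set against it. With libraries of 1 genotype, day and number taken as correlated, 0 members were called in each of the 6 comparisons (Nefl at D7 at an adjusted p of 0.65). That setting ties no WT library to a MUT library, so it does not pair the genotypes. Leaving out a library gave 1 call at D5 (without replicate 3 of MUT D5 p1 or replicate 1 of WT D5 p1) and 1 at D11 pM (without replicate 3 of MUT), and at D7 2 without replicate 1 of WT D7 p2 and 1 without replicate 3 of WT D7 pM. At D5 the median difference between MUT and WT was -0.28, and Tubb2a came closest to the threshold (-0.56 ± 0.14, adjusted p = 0.055). Tubb2a at D5 was 239, 275 and 361 in MUT p1 against 364, 450 and 576 in WT p1, and 442, 390 and 410 against 774 and 564 in pM. Tubb3 differed by -0.42 ± 0.20, Stmn2 by -0.68 ± 0.32, Nefl by -0.61 ± 0.26 and Snap25 by -0.21 ± 0.31, none of which passed. A fit of the D5 libraries alone called 3 members, Tubb3 (adjusted p = 0.036) and Nefl (0.034) among them, and its share over all genes is likewise not given. At D7 Nefl differed by -0.78 ± 0.25 (adjusted p = 0.095) and passed without replicate 1 of WT D7 p2 (-0.94, adjusted p = 0.04) or without replicate 3 of WT D7 pM (-0.91, adjusted p = 0.046).

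From D5 to D11, 29 members rose in MUT p1 (12.9% of all genes were called higher), 29 in p2 (14.3%) and 21 in pM (11.6%), and none fell. The median difference was 3.19, 3.68 and 2.10, or 3.02 in p1 and 3.53 in p2 when the 1 member in each that had no reads at D5 (Myt1l in p1, Nefm in p2) is set to the bound given by 3 reads per library. In the same order Tubb3 rose by 4.60 ± 0.38, 3.03 ± 0.38 and 1.83 ± 0.38. Stmn2 rose by 4.55 ± 0.59, 4.67 ± 0.59 and 2.10 ± 0.59, and Nefl by 3.19 ± 0.49, 3.77 ± 0.49 and 3.03 ± 0.49. Snap25 rose in p1 (3.50 ± 0.57) and p2 (4.26 ± 0.57). In pM it did not pass (1.42 ± 0.57, adjusted p = 0.067), with D11 values of 166 and 915, and it passed without replicate 2 of D11 (2.65, adjusted p = 0.0051). Without replicate 3 of D11 the pM call of Stmn2 was lost (adjusted p = 0.053). Map1b, Dpysl5 and Cplx2 again did not pass in any domain.

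The change from D5 to D11 was larger in MUT than in WT for 1 member, Tubb2a, where 0.293% of all genes were called in that direction and no member was called in the other. The difference of the changes was 0.91 ± 0.22 (adjusted p = 0.026), averaged over the 3 domains with 15 MUT and 14 WT libraries. Tubb2a went from 442, 390 and 410 to 13818 and 13792 in MUT pM and from 774 and 564 to 7336 and 10524 in WT pM. In p1 it went from 239, 275 and 361 to 5896 and 6593 in MUT and from 364, 450 and 576 to 5546 and 4944 in WT. The MUT libraries were lower at D5 and higher at D11 in both domains. In p2 they overlapped at D11, at 9523 and 11586 in MUT and 7610 and 11625 in WT. The call was lost in 6 of 29 fits that left out a library: replicate 3 of MUT D11 p1 (adjusted p = 0.064), replicate 3 of MUT D11 p2 (0.071), replicate 2 of WT D11 p2 (0.11), replicate 2 of WT D11 pM (0.11), replicate 3 of WT D5 p1 (0.053) and replicate 2 of WT D5 pM (0.081). It was also lost when libraries of 1 genotype, day and replicate number were taken as correlated (0.6). MUT D11 was NFIAn and WT D11 NFIAp, so genotype and gate cannot be told apart at D11. Nfia RNA in the MUT D11 libraries was 1014 and 1128 in p1, 1699 and 2177 in p2 and 1892 and 1991 in pM, against 15.2 to 48.8 in the MUT D5 libraries.

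Some genes outside the set, among them part of each list of neuronal genes, moved with the members. Of 16 genes of the neurogenic transition, 15 rose from D5 to D7 in WT p1, 9 in p2 and 3 in pM. Over all genes 3.4%, 3.6% and 1.85% were called higher at that step. Of 24 tested genes of the presynapse and the granule that are not members, 11 rose from D5 to D11 in p1, 14 in p2 and 8 in pM, and none fell. Of 20 other genes of the neuronal cytoskeleton and axonal transport, 10, 10 and 6 rose and 1 fell in each domain. From D5 to D11 14%, 14.2% and 10.7% of all genes were called higher and 13.7%, 11.5% and 9.69% lower. Over the 26 group means, the genes outside the set whose profile was most like the members' mean profile included Tmem50b (Pearson r = 0.98), Uchl1, a ubiquitin hydrolase of neurons (0.97), Rundc3a (0.97), Actl6b, a subunit of the neuronal BAF complex (0.97), Resp18 (0.96), Gpm6b (0.96), Cend1 (0.96), Nacad (0.96) and Snx15 (0.96). Not all of them were low at the start: the lowest group mean was 253 for Tmem50b and 184 for Snx15. These are descriptions over groups that share day, gate and normalisation. Among the members, the profile of Stmn4 lay closest to the mean profile (r = 0.97) and that of Dpysl5 farthest (0.11).

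Markers of other cells also moved with the day. Progenitor markers (12 genes, led by Vim and Fabp7) summed to 1109 to 1920 CPM in the WT D5 libraries and to 4776 to 9666 at D11, and 4, 3 and 3 of the 12 rose in p1, p2 and pM, with 1 lower in p1 and 1 in p2. Over all genes 14%, 14.2% and 10.7% were called higher in this comparison and 13.7%, 11.5% and 9.69% lower, against which the counts of each list are to be read. Astroglial markers summed to 72.7 to 110 at D5 and 502 to 1146 at D11, with 6 of 7 tested rising in each domain. Markers of neural crest and Schwann cells summed to 1.96 to 4.42 at D5 and 19.0 to 142 at D11, and mesenchymal markers to 7.05 to 34.5 at D5 and 54.9 to 354 at D11 (3, 7 and 4 of 9 rose). Markers of sensory and autonomic neurons summed to 2.43 to 19.2 at D5 and 4.40 to 11.1 at D11. In between, in WT p2, they went from 2.43 to 6.71 at D5 to 14.9 to 29.1 at D7, without overlap, and stood at 8.79 to 37.9 in the NFIAp gate at D9. From D5 to D7 1, 2 and 1 of the 6 tested rose in p1, p2 and pM. Endothelial markers stayed under 10 CPM, and the 5 markers of microglia and blood, none of which passed the filter, stayed under 1. The part of these other cells in the members' rise was not tested.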

How the data were processed

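The deposited table holds normalised counts, a signal that the authors derived from read counts; DESeq2 and the mm10 build are named per the submitters' processing notes. Within each library all values are whole multiples of 1 step, as counts divided by a size factor are, and dividing by that step returned whole reads for 100% of values within 0.01. Aligner, counter, annotation and strand setting are not given in the sources used here. Groups were taken from the sample titles. Genes with at least 10 normalised counts in at least 2 libraries (15714) were tested on log2(normalised count + 1) with limma 3.58.1 in R 4.3.3, with trend, 26 group means over all 66 libraries and Benjamini-Hochberg adjustment over all genes tested, at 0.05. Alternatives were edgeR 4.0.16's quasi-likelihood test on the recovered reads, TMM scaling, 8 as the pseudocount, all genes kept, a fit of the compared groups alone, the replicate number as a block, libraries of one genotype, day and number as correlated, and leaving out 18 libraries of high total or each library in turn. The limma fit was also run on simulated data, for the D7 minus D5 comparison in WT p1 only. Its draws were independent between libraries, so shared variation of same-numbered libraries was not simulated, and its outcome is not given here. Named in each comparison were Tubb3, Stmn2, Snap25, Nefl and the 3 called members per direction with the largest differences and a mean of at least 50; genes shown beside these were picked after their values were seen. Members and lists were chosen with earlier results of these data known, and the comparisons between D5 domains and of D11 with D7 were added after levels were seen. Some genes that these rules would name are not reported here.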

Additional observations from a re-analysis of the deposited data

Results flagged for a closer look

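The change from D5 to D11 in WT differed among the 3 domains for 2 members by an F test in limma, Tubb3 (adjusted p = 0.00088) and Celf3 (adjusted p = 0.0044). In both the change was largest in p1 and smallest in pM. Both were also called between p1 and p2 at D5, but these D5 libraries are the baseline of the changes, so the results are not separate. The Tubb3 call at D5 was lost in each of 6 fits that left out a library (adjusted p from 0.082 to 0.21). The Celf3 call among domains was lost with a pseudocount of 8 (0.071) and in a fit of the compared groups alone (0.097). The change from D5 to D11 differed between the genotypes for Tubb2a (adjusted p = 0.026), where the MUT libraries were NFIAn and the WT libraries NFIAp at D11. Tubb2a was also lower in MUT at D5 in p1 and pM, which is the baseline of that change. Its call was lost in 6 of 29 fits that left out a library. It was also lost when libraries of 1 genotype, day and replicate number were taken as correlated (0.6).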

How the results depend on the processing

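Counts of members called are given here for the settings that moved them by over 1.5 times; names such as D7-D5 mean D7 minus D5. Across the planned settings 214 of these counts stayed within that range and 54 did not. Shares of all genes called are given in this report for the reported fit only. In a fit of the compared groups alone the count was 0 for WT D9-D7 pM, WT D11-D9 p1 and WT D9 gate, 1 for WT D9-D7 p1, WT D11-D9 pM and WT D5 p2-p1, 2 for WT D7-D5 pM and WT D5 pM-p2, 3 for MUT-WT at D5, 5 for MUT D5 pM-p2, 13 for WT D7-D5 p1. Without the 18 libraries of high total the count was 1 for MUT-WT at D5, 2 for WT D5 pM-p2 and MUT D5 p2-p1, 4 for F test among domains. Counts of comparisons with WT D9 are not given for this setting, since it leaves 1 library in each WT D9 group. In edgeR the count was 0 for WT D9 gate, 1 for WT D9-D7 pM and WT D5 pM-p2, 2 for WT D11-D9 pM. With correlated libraries the count was 0 for WT D11-D9 p1 and genotype by time, 1 for WT D9-D7 pM, 3 for WT D9 gate and WT D11 p2-p1, 4 for WT D5 pM-p2 and MUT D5 p2-p1, 5 for F test among domains, 13 for MUT D5 pM-p2. With the replicate block over all days the count was 1 for WT D11-D9 p2, MUT-WT at D5 and MUT-WT at D7, 2 for WT D5 pM-p2, 3 for WT D11-D9 p1. With no filter the count was 1 for WT D5 pM-p2, 2 for WT D11-D9 pM. With TMM scaling the count was 1 for WT D5 pM-p2, 2 for WT D11-D9 pM. With a pseudocount of 8 the count was 1 for F test among domains and WT D5 pM-p2. With the replicate block within a day the count was 2 for MUT-WT at D11 p1, MUT-WT at D11 p2 and MUT-WT at D11 pM, 3 for WT D11 p2-p1, MUT-WT at D5 and WT D5 pM-p2, 4 for WT D9 gate and MUT D5 p2-p1, 6 for MUT-WT at D7, 13 for MUT D5 pM-p2. Leaving out each library in turn gave 13 to 18 for WT D7-D5 p1, 13 to 22 for WT D7-D5 p2, 4 to 9 for WT D7-D5 pM, 1 to 2 for WT D9-D7 p1 and MUT D5 p2-p1, 0 to 1 for WT D9-D7 p2, WT D9-D7 pM, WT D11-D9 p2, WT D9 gate, MUT-WT at D5, MUT-WT at D11 pM and genotype by time, 0 for WT D11-D9 p1, 0 to 3 for WT D11-D9 pM, 11 to 14 for WT D11-D5 pM, 1 to 3 for F test among domains and WT D5 p2-p1, 0 to 2 for MUT-WT at D7, 3 to 8 for MUT D5 pM-p2.

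Of the 4 genes named in every comparison, none of the reversed differences passed the test in the reported fit. Without the 18 libraries of high total the sign turned for Stmn2 in WT D9-D7 pM (-0.203), Tubb3 in WT D11-D9 p1 (0.016), Stmn2 in WT D11-D9 p2 (-0.191), Snap25 in WT D11-D9 p2 (-0.352), Tubb3 in WT D9 gate (0.108), Stmn2 in WT D9 gate (0.335). With the replicate block over all days the sign turned for Stmn2 in WT D11-D9 p1 (-0.028), Stmn2 in WT D11-D9 p2 (-0.044), Stmn2 in WT D11-D9 pM (-0.071). In edgeR the sign turned for Stmn2 in MUT-WT at D7 (-0.045). Leaving out a library in turn also turned the sign in these ranges. Snap25 ranged from -0.376 to 0.428 in WT D9-D7 p2, -0.154 to 1.798 in WT D11-D9 p1, -0.445 to 1.361 in WT D11-D9 p2, -1.194 to 0.612 in WT D11 pM-p2, -0.528 to 1.424 in MUT-WT at D11 p1, -0.715 to 1.091 in MUT-WT at D11 p2, -1.722 to 0.734 in MUT-WT at D11 pM, -0.152 to 0.666 in genotype by time, -0.148 to 0.389 in MUT D5 p2-p1. Stmn2 ranged from -0.513 to 0.882 in WT D9-D7 pM, -0.470 to 0.784 in WT D11-D9 p1, -0.066 to 0.318 in WT D11-D9 p2, -0.236 to 0.356 in WT D11-D9 pM, -0.546 to 0.152 in WT D9 gate, -0.055 to 0.440 in MUT-WT at D7, -0.416 to 0.049 in MUT-WT at D9, -0.421 to 0.832 in MUT-WT at D11 p1, -0.233 to 0.253 in MUT-WT at D11 pM, -0.159 to 0.554 in MUT D5 p2-p1. Tubb3 ranged from -1.079 to 0.059 in WT D9-D7 pM, -0.533 to 0.276 in WT D11-D9 p1, -0.101 to 0.351 in WT D11-D9 pM, -0.285 to 0.094 in MUT-WT at D9. Nefl ranged from -1.364 to 0.112 in WT D11-D9 p2, -0.052 to 0.638 in WT D11-D9 pM, -1.064 to 0.412 in WT D11 pM-p2, -0.455 to 1.020 in MUT-WT at D11 p2, -0.259 to 1.169 in MUT-WT at D11 pM.

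Same-numbered libraries of one day deviated together by a correlation over 0.1 in 21 of 40 pairs at D5, 42 of 45 at D7, 33 of 48 at D9 and 24 of 30 at D11, and 60 of 65 libraries correlated best with their own number. Pairs with the same number had medians from 0.103 to 0.209, so same-numbered libraries varied together. Deviations from a group mean sum to 0, so the medians of pairs with different numbers (-0.208 to -0.043) are no separate support. The labels do not say what the number marks. The reported fit takes the libraries as independent and does not account for this shared variation. Fits with the number as a block are given as alternatives. The correlated setting ties libraries within 1 genotype and day only, so it does not pair WT with MUT. The cause of these changes was not tested. MUT minus WT at D9 could not be fitted without the 18 libraries, since that leaves a group empty. Low counts limit the size of a difference: that of Syt1 in pM from D5 to D7 was 5.37 with a pseudocount of 1 and 3.13 with 8.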

Other observations

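Genes that mark the kinds of neuron made by each domain were followed as separate lists in WT from D5 to D11, where 14%, 14.2% and 10.7% of all genes were called higher in p1, p2 and pM. The lists are short, at 5 to 9 genes, so counts of 1 or 2 are not read as a difference from those shares. Of 7 tested genes of V0 and V1 neurons, the classes that arise from p0 and p1, 5 rose from D5 to D11 in p1, 5 in p2 and 0 in pM. Lhx5, a LIM factor of these classes, stood at 0 to 6.70 normalised counts in D5 p1 and at 286 and 306 in D11 p1, against 25.5 and 39.9 at D5 and 33.2 and 102 at D11 in pM. Of 6 genes of V2 neurons, which arise from p2, 2, 5 and 2 rose. Lhx3, shared by V2 and motor neurons, went from 34.3 to 50.4 at D5 to 311 and 424 at D11 in p2, and was already at 576 and 600 at D5 in pM. Of 7 motor neuron genes 1, 4 and 0 rose. Isl1, a factor of motor neurons, stood at 1081 and 1107 in D5 pM and at 2624 and 3230 in D11 pM, and at 5.74 to 27.8 in D5 p1 and 260 and 735 in D11 p1. Whether these counts differ between the domains was not tested.

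Of 9 transmitter genes, 2, 3 and 2 rose in p1, p2 and pM. Of 9 genes of the oligodendrocyte lineage 3, 3 and 4 rose, and 1 fell in p1. Of 5 pluripotency genes 0, 2 and 1 rose and 1 fell in p1. Dppa5a, one of them, stood at 17.4 to 41.4 in D5 p2 and at 184 and 365 in D11 p2.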
